A study of Mus musculus with 24 samples.

Results

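The 33 genes described here encode proteins of the lysosome and of autophagy, together with *Tfeb*, *Tfe3* and *Mitf*, the transcription factors known for controlling many of them. They were picked by gene name from a count table of 55487 mouse genes, and all 33 passed the filter on low counts in every comparison. They comprise 3 transcription factors, 3 lysosomal membrane proteins, 6 cathepsins, 7 other hydrolases and their activators, 4 subunits or partners of the V-ATPase, 5 ubiquitin-like proteins and receptors of autophagy, and 5 proteins that start or extend the autophagosome.

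The lysosome is an acidic organelle in which proteins, glycans and lipids are taken apart by hydrolases, and the V-ATPase pumps the protons that keep it acidic. In autophagy, a double membrane closes around cytoplasmic cargo and delivers it to the lysosome. In hepatocytes the cargo includes lipid droplets, whose triglycerides and cholesteryl esters are cut by the lysosomal acid lipase LIPA. TFEB, TFE3 and MITF are basic helix-loop-helix leucine zipper proteins held in the cytoplasm when mTORC1, the nutrient-sensing kinase complex on the lysosomal surface, is active. In the nucleus they bind E-box sequences in the promoters of lysosomal genes. BMAL1, the clock factor that pairs with CLOCK, also binds E-boxes, and CHREBP, the glucose-sensing activator of lipogenic genes, binds paired E-box-like sequences.

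Expression was measured in AML-12, an immortal hepatocyte line from mouse, by BRB-seq, which barcodes samples early and sequences the 3′ ends of mRNAs. The 24 libraries formed 6 groups of 4. BSA cells received the albumin carrier alone and PAL cells 0.25 mM palmitate, a saturated fatty acid used to load hepatocytes with fat. The other groups received 0.25 mM palmitate and then, for 24 hours before collection, an endoribonuclease-prepared small interfering RNA (esiRNA), which is a mixture of short RNAs cut from a longer duplex. In CON this was directed at *Egfp*, which has no counterpart in mouse, at 200 nM. In BMAL1 it targeted *Bmal1* and in CHREBP it targeted *Chrebp*, each at 100 nM, and BOTH was given the mixture, 200 nM altogether. Palmitate was therefore shared by all groups other than BSA, and every esiRNA group was transfected. All groups came from 1 cell line, and no source used here says that replicates were separate cultures, so p-values measure the spread between these libraries, which may be technical.

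On the library plate, column 1 held BSA with PAL, column 2 held CON with BMAL1, and column 3 held the groups given *Chrebp* esiRNA. Within each column the first of these groups (BSA, CON and CHREBP) lay in rows A to D and the other (PAL, BMAL1 and BOTH) in rows E to H. Plate row therefore cannot be told apart from palmitate in PAL against BSA, nor from *Bmal1* esiRNA in BMAL1 against CON or BOTH against CHREBP. Column and transfection cannot be told apart in CON against PAL, nor can column and *Chrebp* esiRNA in CHREBP or BOTH against CON or BMAL1. Plate row differed as well in CON against PAL and in BOTH against CON, and cannot be told apart there either. Each library held between 5399700 and 11237474 gene counts. Hepatocyte markers such as *Hnf4a*, *Trf*, *Krt8* and *Krt18* were well detected, whereas *Apoa1*, *Asgr1* and *Tat* never exceeded 15 counts in a library. The macrophage markers *Adgre1*, *Clec4f* and *Marco* were at 0 in all 24 libraries. Of the other macrophage markers, *Cd14* had 429 to 1049 counts per library, and *Csf1r* and *Ptprc* had at most 17 and 8. Of the fibroblast and stellate markers, *Col1a1* was the highest, with at most 10 counts in a library. *Arntl*, the table's name for *Bmal1*, was lower in BOTH than in CON (log2 fold change -0.98, SE 0.28, DESeq2 *Padj* = 0.00994), and BMAL1 had 26.0 ± 4.82 normalized counts against 44.7 ± 11.6 in CON (SD, n = 4; no *Padj* at these counts). *Mlxipl*, its name for *Chrebp*, was lower in BOTH (-1.07, SE 0.30, *Padj* = 0.00762), while its value in CHREBP was -0.46 (SE 0.28, *Padj* = 0.593).

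The E-box letters were looked for in the promoters of the set, since TFEB and its relatives are known to bind them. RefSeq promoters of GRCm38.p6, each holding 250 bases before and 50 after an annotated start, were matched for 29 of the 33 genes. *Ctsb*, *Atp6v1h*, *Map1lc3a* and *Becn1* had no entry. The palindrome CACGTG, which reads the same on both strands, occurred in the promoters of 12 of the 29 matched genes (41.4%), against 8.09% of 27025 genes with a promoter in the same table. Its extended form TCACGTGA was present in 6 of the 29 and in 304 of the 27025 genes. That extended form with G directly before it and C directly after it was present in 0 of the 29 and in 100 of the 27025 genes. The less specific CANNTG, which includes CACGTG, was present in 24 of the 29 and in 75.0% of all genes. The promoters of 4 of the genes that were lower in PAL than in BSA held CACGTG, shown here as capitals in windows of 30 bases with GRCm38.p6 coordinates.
*Ctsf* (chr19:4855074-4855103, + strand): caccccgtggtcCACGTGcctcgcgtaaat
*Gaa* (chr11:119267811-119267840, + strand): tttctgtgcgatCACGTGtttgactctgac
*Glb1* (chr9:114401018-114401047, + strand): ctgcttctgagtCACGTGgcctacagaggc
*Atp6v1a* (chr16:44139373-44139402, - strand): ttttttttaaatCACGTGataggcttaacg

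The same letters occurred in genes that did not pass the test of PAL against BSA, of which 5 with the extended palindrome are shown for comparison.
*Mcoln1* (chr8:3500462-3500491, + strand): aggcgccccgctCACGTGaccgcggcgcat
*Ctsa* (chr2:164833749-164833778, + strand): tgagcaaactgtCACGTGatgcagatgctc
*Ctsd* (chr7:142387908-142387937, - strand): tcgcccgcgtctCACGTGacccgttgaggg
*Gla* (chrX:134601182-134601211, - strand): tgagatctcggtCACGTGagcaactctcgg
*Atp6v0d1* (chr8:105566050-105566079, - strand): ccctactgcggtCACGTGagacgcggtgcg

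CACGTG was thus held by 4 of the 13 matched genes that were lower in PAL and by 8 of the 16 that were not. *Lipa* and *Lamp2*, the genes of the set that passed the most tests, had no CANNTG in the 250 bases before an annotated start, printed here whole for that reason. Elsewhere in its promoter entries *Lamp2* did hold CANNTG, and *Lipa* did not.
*Lipa* (chr19:34527475-34527724, - strand): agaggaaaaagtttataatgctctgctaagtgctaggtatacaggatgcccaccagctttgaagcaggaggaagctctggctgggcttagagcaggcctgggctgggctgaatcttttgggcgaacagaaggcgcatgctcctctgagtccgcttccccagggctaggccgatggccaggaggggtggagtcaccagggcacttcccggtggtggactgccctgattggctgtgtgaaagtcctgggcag
*Lamp2* (chrX:38456461-38456710, - strand): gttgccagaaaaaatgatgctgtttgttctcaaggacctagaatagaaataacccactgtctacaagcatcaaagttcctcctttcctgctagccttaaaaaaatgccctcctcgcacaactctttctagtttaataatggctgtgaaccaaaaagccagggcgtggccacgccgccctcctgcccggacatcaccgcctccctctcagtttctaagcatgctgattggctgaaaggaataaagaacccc

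A match describes letters in a window and is not evidence of binding, and a missing match says nothing about sites elsewhere.

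The first comparison, PAL against BSA, addressed the response to palmitate in cells without esiRNA, with the plate rows differing as well. Of the 33 genes, 14 were lower in PAL and 0 were higher by DESeq2 at a Benjamini-Hochberg adjusted p (*Padj*) under 0.1, while 14.3% of 12827 genes tested passed in either direction, 7.6% being lower and 6.65% higher. At an unadjusted p under 0.05, 1 gene was higher, and edgeR also called 0 higher and 14 lower. The median log2 fold change was -0.21 over the 33 genes and 0.0048 over all genes tested. Where the mean normalized count reached 100, as it did for 31 members and 7946 genes in all, 9.2% were lower in PAL, 9.45% were higher, and the median was 0.02. Every role had at least 1 gene among the 14. They were 5 of the 7 glycosidases, saposins and lipase, 3 of 6 cathepsins, 2 of 4 V-ATPase genes, 1 of 3 transcription factors, 1 of 3 membrane proteins, 1 of 5 ubiquitin-like proteins and receptors, and 1 of 5 autophagosome proteins. The difference between roles was not tested. PAL replicate 1 held the highest value of its group for 17 of the 33 genes, and without it 15 genes were lower, the same 14 and *Psap*, and 0 were higher. In bulk RNA, fewer cells of one state and less RNA per cell cannot be told apart.

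**Figure D1:**
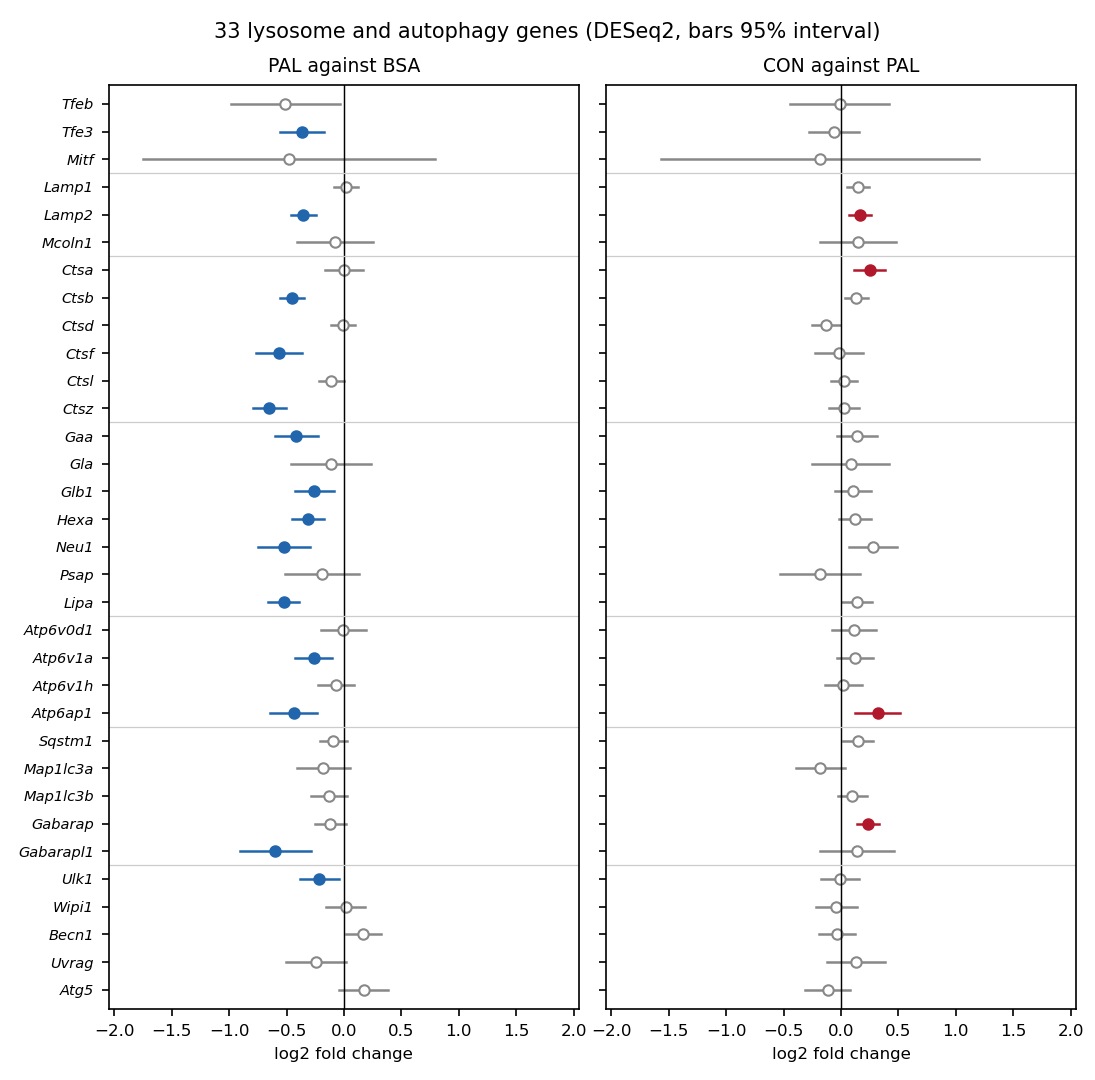
Log2 fold changes of the 33 genes (rows, separated by role) in PAL against BSA and in CON against PAL, with 95% intervals from DESeq2 (n = 4 libraries per group). Filled blue points were lower and filled red points higher at *Padj* under 0.1; 14 points are blue on the left and 4 are red on the right.

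Among the transcription factors, *Tfe3* (chromosome X, 7762560 to 7775202) was lower in palmitate. Its normalized counts were 422, 411, 431 and 412 in BSA replicates 1 to 4 and 337, 348, 283 and 329 in PAL. The ranges did not overlap, and *Tfe3* fell by 22.3% (log2 fold change -0.36, SE 0.10, DESeq2 *Padj* = 0.00280). *Tfeb* (chromosome 17, 47737030 to 47792419) was sparse, with 32 to 110 counts per library. It stood at 84.8, 57.1, 99.2 and 46.7 in BSA and 42.2, 50.3, 53.7 and 56.0 in PAL. BSA replicates 1 and 3 were high and replicate 4 lay within the PAL range, and the test was not passed (log2 fold change -0.51, 95% interval -0.99 to -0.04, DESeq2 *Padj* = 0.177). Without BSA replicate 4 it was (log2 fold change -0.66, *Padj* = 0.0651). *Mitf*, best known from pigment cells, was near the detection floor with 0 to 18 counts per library, at 7.71, 8.70, 5.41 and 9.90 in BSA and 6.60, 3.02, 11.2 and 2.33 in PAL, and its interval of -1.75 to 0.79 allowed a change of either sign.

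Cathepsins are the lysosomal proteases, and 3 of 6 were lower in PAL. *Ctsz*, a carboxypeptidase, had the largest fall of the set. Its normalized counts were 1920.1, 1653, 1788 and 1546 in BSA and 1154, 1031, 1068 and 1137 in PAL. Every BSA library lay above every PAL library, and the level fell by 36.3% (log2 fold change -0.65, SE 0.0741, DESeq2 *Padj* = 3.69e-16). *Ctsb*, an abundant cysteine protease, stood at 5002, 4630.3, 4669 and 5016 in BSA and 3604, 3635, 3332 and 3454 in PAL. These ranges were also apart, with a fall of 27.1% (log2 -0.46, SE 0.0537, DESeq2 *Padj* = 4.26e-15). *Ctsf* was at 517, 471, 453 and 526 in BSA and 385, 301, 289.6 and 347 in PAL, without overlap (log2 -0.57, SE 0.10, DESeq2 *Padj* = 1.86e-06). The other 3 cathepsins had log2 fold changes of -0.11 for *Ctsl*, -0.01 for the aspartic protease *Ctsd* and 0.0012 for *Ctsa*, the carboxypeptidase that also shields NEU1 and GLB1. Their 95% intervals were -0.22 to -0.0011, -0.11 to 0.10 and -0.16 to 0.16. *Ctsl* did not overlap between the groups all the same, and with the 11 such genes that passed the test it made 12 of 33, against 15.1% of all genes tested. The interval of *Ctsd* does not reach the log2 fold changes of *Ctsz*, *Ctsb* or *Ctsf*.

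Of the 7 genes for glycan and lipid breakdown, 5 were lower. *Lipa*, the acid lipase, was at 1164, 1137, 1082 and 1252 in BSA and 824, 801, 763 and 814 in PAL. No library overlapped, and the level fell by 30.5% (log2 -0.52, SE 0.0699, DESeq2 *Padj* = 7.37e-12). *Neu1*, a sialidase, was at 412, 385, 341 and 492 in BSA and 279, 314, 265 and 266 in PAL, again without overlap (log2 -0.52, SE 0.12, DESeq2 *Padj* = 1.55e-04). *Hexa*, the alpha subunit of beta-hexosaminidase, was at 1103, 1064, 1023 and 1016 in BSA and 882, 769.5, 880.0 and 839.6 in PAL (log2 -0.32, SE 0.0707, DESeq2 *Padj* = 2.22e-04). These groups were apart as well. *Gaa*, the acid alpha-glucosidase that degrades glycogen, was at 799.9, 791, 901 and 641 in BSA and 667, 555, 568 and 564 in PAL. PAL replicate 1 lay above BSA replicate 4, so the groups overlapped, giving a log2 difference of -0.41 (SE 0.10, DESeq2 *Padj* = 4.93e-04). *Glb1*, the acid beta-galactosidase, was at 806, 810.4, 796 and 690.3 in BSA and 705, 659.9, 562 and 665 in PAL, overlapping through the same 2 libraries (log2 -0.26, SE 0.0849, DESeq2 *Padj* = 0.0271). It did not pass without BSA replicate 1, BSA replicate 2 or PAL replicate 3 (*Padj* = 0.120, 0.119 and 0.165). *Psap*, the precursor of the saposins that present lipids to hydrolases, was at 1611, 1708, 1798 and 1923 in BSA and 2039.6, 1414, 1291 and 1395 in PAL. PAL replicate 1 was the highest of the 8 libraries, and the test was not passed (log2 -0.19, SE 0.16, DESeq2 *Padj* = 0.565). *Gla*, the alpha-galactosidase, had means of 124 ± 26.1 in BSA and 113 ± 19.5 in PAL (SD, n = 4), a log2 fold change of -0.11 that did not pass.

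**Figure D2:**
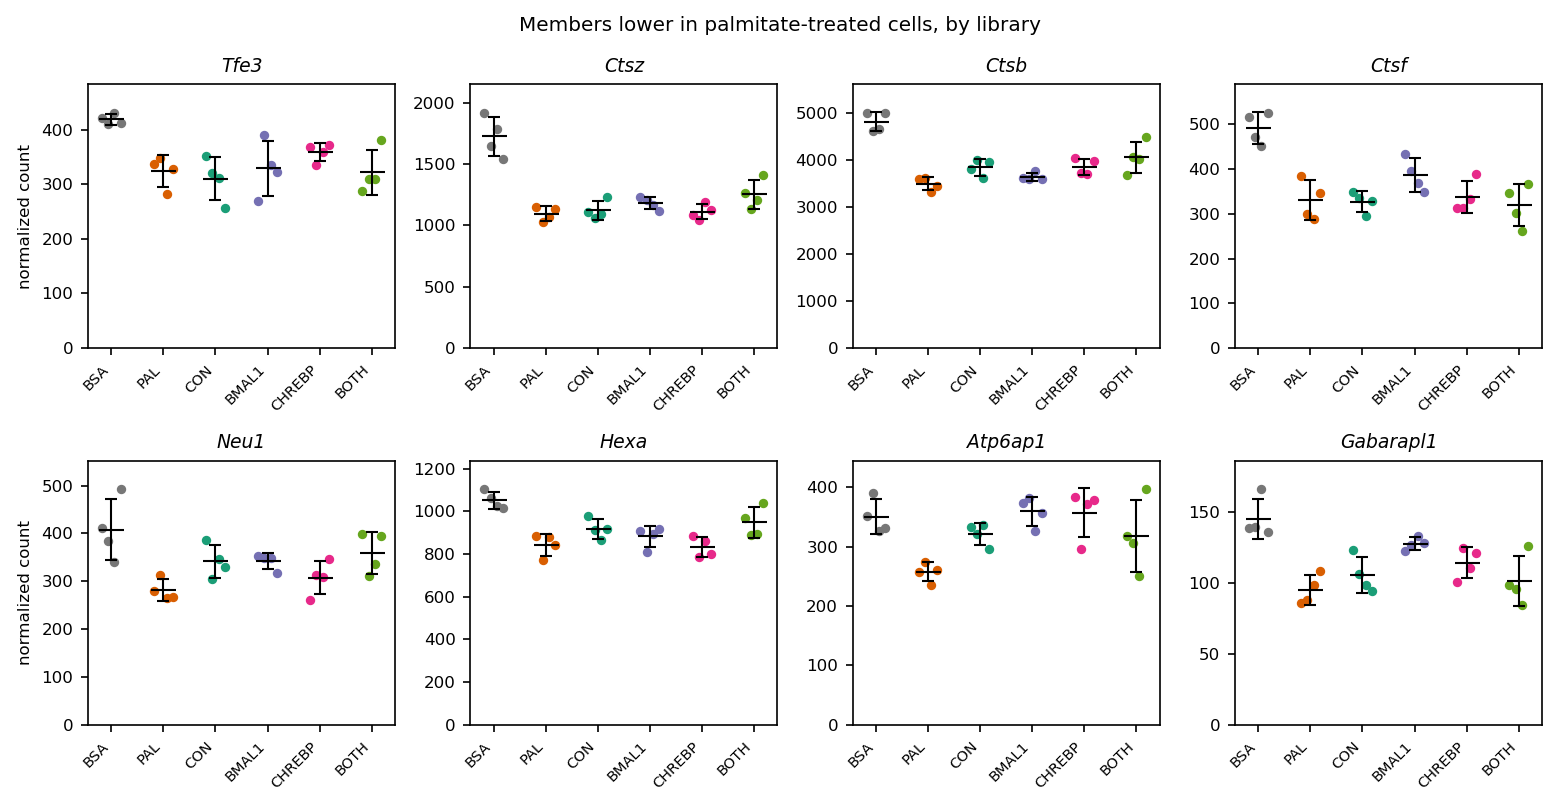
Normalized counts of 8 genes lower in PAL than in BSA, in each of the 24 libraries (points), with the mean and SD of each group (n = 4). In these 8 genes all PAL libraries lie below all BSA libraries, and *Ctsz* falls from a mean of 1727 ± 163 to 1097 ± 57.9.

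At the lysosomal membrane, *Lamp2*, a glycoprotein needed for fusion with autophagosomes, was at 3773, 3977, 3499.5 and 3907 in BSA and 2928, 3032, 2896 and 2949 in PAL. The groups were apart, with a fall of 21.7% (log2 -0.35, SE 0.0549, DESeq2 *Padj* = 8.89e-09). Its relative *Lamp1* had 2093 to 2264 in BSA and 2135 to 2255 in PAL, a log2 fold change of 0.02 with an interval of -0.09 to 0.13 that does not reach the value of *Lamp2*. *Mcoln1*, the calcium channel of the lysosome, was at 146 to 163 in BSA and 121 to 218 in PAL (log2 -0.08, interval -0.41 to 0.25).

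In the V-ATPase, *Atp6ap1*, an accessory protein of its assembly, was at 352, 391, 326 and 331 in BSA and 257, 275, 236 and 260.4 in PAL (log2 -0.44, SE 0.11, DESeq2 *Padj* = 7.44e-04). *Atp6v1a*, the catalytic subunit, was at 587, 578, 598 and 622 in BSA and 525, 491, 504 and 461 in PAL (log2 -0.26, SE 0.0813, DESeq2 *Padj* = 0.0154). Neither gene overlapped between the groups, although *Atp6v1a* narrowly missed the threshold without PAL replicate 4. The subunits *Atp6v0d1* and *Atp6v1h* had log2 fold changes of -0.0041 and -0.07, with intervals of -0.20 to 0.19 and -0.23 to 0.08.

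In the autophagy machinery, *Gabarapl1*, a ubiquitin-like protein that is joined to the autophagosome membrane, was at 139, 139, 166 and 136 in BSA and 85.8, 87.5, 98.4 and 108 in PAL. The ranges did not overlap (log2 -0.60, SE 0.16, DESeq2 *Padj* = 0.00272). *Ulk1*, the kinase that starts autophagy, was at 539, 500.0, 552 and 577 in BSA and 504, 436, 452 and 469.5 in PAL. PAL replicate 1 lay above BSA replicate 2, and the log2 difference of -0.21 (SE 0.0864, DESeq2 *Padj* = 0.0957) stood just inside the threshold. It did not pass in 6 of the 8 fits that each left out a library, with *Padj* up to 0.250. The other 8 autophagy genes did not pass. *Sqstm1*, the cargo receptor p62, *Map1lc3a*, *Map1lc3b* and *Gabarap* had log2 fold changes between -0.18 and -0.09, and *Wipi1*, *Becn1*, *Uvrag* and *Atg5* between -0.25 for *Uvrag* and 0.17 for *Atg5*. *Becn1* was the gene higher at an unadjusted p under 0.05 (DESeq2 *Padj* = 0.172).

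Counted together, the 33 genes took up 5265 to 5395 CPM (counts scaled to a common library total) in BSA libraries and 4461 to 4747 in PAL libraries. These ranges did not overlap. Among transfected cells the sum was 4570 to 5230 CPM for BOTH, 4635 to 4856 for CHREBP, 4812 to 5044 for BMAL1 and 4786 to 4914 for CON. No transfected library reached the range of BSA. Beside these values, the 12 hepatocyte markers summed to 6968 to 7343 CPM in BSA and 7748 to 8393 in PAL, most of it from *Krt8* and *Krt18*, and 2 of the 11 tested were higher and 5 lower in PAL. The 6 macrophage markers summed to 112 to 123 CPM in BSA and 73.6 to 85.5 in PAL, nearly all of it from *Cd14* (log2 -0.54, SE 0.0767, DESeq2 *Padj* = 2.07e-10), while *Adgre1*, *Clec4f* and *Marco* stayed at 0. The part of these markers in the values was not tested.

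A wider list of 148 other lysosome, autophagy and mTORC1 genes was counted in the same way. Of 138 tested in PAL against BSA, 25 were lower and 1 was higher. Other hydrolases and their activators were lower in 13 of 34 tested, other lysosomal membrane proteins in 5 of 19 and other V-ATPase subunits in 3 of 12. Other autophagy proteins were lower in 2 of 42, and the genes of mTORC1 and TFEB control in 2 of 31 with 1 higher. The lowest *Padj* among the falls belonged to *Ctsc*, the protease that activates others by trimming them (log2 -0.89, SE 0.0700, DESeq2 *Padj* = 2.00e-34). Its mean normalized count was 1560.1 in BSA and 838 in PAL. *Grn*, which encodes progranulin, *Npc2*, which carries cholesterol out of the lysosome, *Vmp1*, a membrane protein of early autophagosomes, and *Lgmn*, the asparaginyl protease legumain, had log2 fold changes of -0.46, -0.42, -0.43 and -0.50. *Lamtor1*, which anchors mTORC1 signalling to the lysosome, was the gene that was higher (log2 0.22, SE 0.0683, DESeq2 *Padj* = 0.0181), with overlap between the groups.

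**Figure D3:**
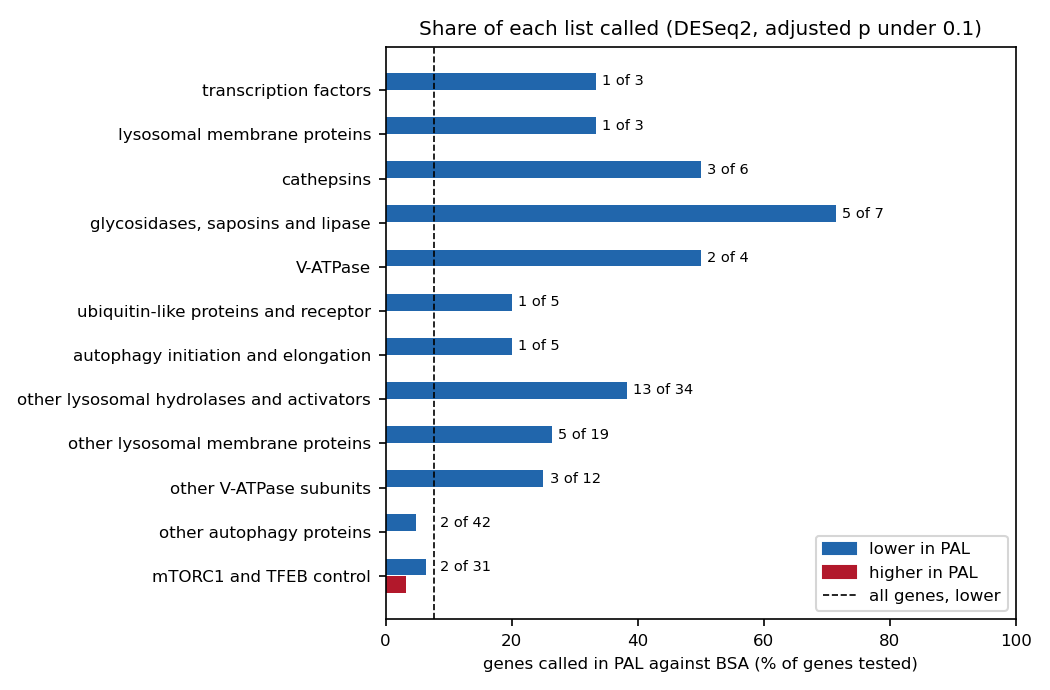
Share of each gene list called lower (blue) or higher (red) in PAL against BSA, as a percentage of the genes tested by DESeq2 (*Padj* under 0.1), with counts beside the bars; the upper 7 lists make up the 33 genes and the lower 5 the wider list. The dashed line marks 7.6%, the share of all genes lower in PAL, and 10 of the 12 blue bars pass it, those of other autophagy proteins and of mTORC1 and TFEB control being the exceptions.

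The comparison of CON with PAL addressed the control transfection in cells that all carried palmitate, with the library column and the plate rows differing as well. Of the 33 genes, 4 were higher in CON and 0 were lower (DESeq2), when 2.51% of 12928 genes tested passed, 1.59% higher and 0.92% lower. The groups did not overlap for 6 of the 33, against 7.16% of all genes. At an unadjusted p under 0.05, 9 members were higher and 1 was lower, and edgeR called 3 higher and 0 lower. The median log2 fold change was 0.10 over the members and -4e-05 over all genes. *Gabarap*, the ubiquitin-like protein that also sorts receptors, was at 2601, 2452, 2596 and 2469.7 in PAL and 3071, 2963, 2861 and 3032 in CON (log2 0.23, SE 0.0501, DESeq2 *Padj* = 4.85e-04). *Ctsa* was at 957, 793, 867 and 839.6 in PAL and 1049, 1045, 974 and 1038 in CON (log2 0.25, SE 0.0701, DESeq2 *Padj* = 0.0252). All CON libraries lay above all PAL libraries for both. *Lamp2*, at the PAL values above and 3356, 3393, 3382 and 3130.2 in CON, differed by 0.17 (SE 0.0492, DESeq2 *Padj* = 0.0406) on the log2 scale. *Atp6ap1* was at 332, 321, 336 and 296 in CON (log2 0.32, SE 0.10, DESeq2 *Padj* = 0.0663). The ranges of *Lamp2* and *Atp6ap1* were apart too, but the calls of 3 of the 4 genes rested on single libraries. Between 1 and 4 genes passed when 1 library was left out, only *Gabarap* without CON replicate 1, CON replicate 2 or PAL replicate 4, and *Gabarap* itself did not pass when all 24 libraries were fitted together (*Padj* = 0.196).

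*Tfeb*, *Tfe3* and *Mitf* had log2 fold changes of -0.01, -0.06 and -0.18 in CON against PAL, none past the test. The esiRNA groups differed from the untransfected ones in interferon-induced genes, and those values belong beside each comparison that follows. The summed level of 12 such genes was 6046 to 10207 CPM for BOTH, 3140.1 to 6378 for CHREBP, 144 to 218 for BMAL1 and 127 to 1016 for CON, beside 45.2 to 53.6 for PAL. In CON, replicate 1 was the lowest. All 10 of them tested in CON against PAL were higher in CON (median log2 fold change 4.25), and of 11 hepatocyte markers tested 2 were higher and 1 lower. The part of these genes in the values was not tested. In the wider list, *Grn* (0.37), *Npc2* (0.26) and *Flcn* (0.34), the folliculin gene of mTORC1 control, were higher in CON than in PAL on the log2 scale, and *Laptm4a*, a lysosomal membrane protein, was lower (-0.24). These were 4 of 138 tested, when 2.51% of all genes passed.

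BMAL1 against CON addressed esiRNA against the clock factor. Both groups lay in 1 column of the plate, but BMAL1 received 100 nM and CON 200 nM of esiRNA and they lay in different plate rows, which cannot be told apart from the target. None of the 33 genes was called by DESeq2, with 0 higher and 0 lower, when 0.49% of 13883 genes tested passed. The groups did not overlap for 3 of the 33, against 5.43% of all genes. Of the members, 3 had an unadjusted p under 0.05, and edgeR called 0. *Ulk1* was at 439.9, 479, 448 and 482 in CON and 548, 544, 540.1 and 524 in BMAL1. These ranges did not overlap, yet the test was not passed over all genes (log2 0.22, SE 0.0805, DESeq2 *Padj* = 0.308). *Map1lc3a* (0.24) and *Ctsf* (0.24) were the others under an unadjusted 0.05. *Tfeb* and *Mitf* received no *Padj* here because of their low counts, and *Tfe3* had a log2 fold change of 0.08 (95% interval -0.15 to 0.32). *Lamp1* was also without overlap between the groups, and 1 of its libraries stood far from the others. It was at 2418, 2466, 2431 and 2378 in CON and 2304, 2217, 2195 and 978 in BMAL1, where replicate 4 held less than any other of the 24 libraries, and the interval of its log2 fold change was -0.79 to 0.12. The median log2 fold change of the members was 0.04, against -0.0050 over all genes. Of the 12 interferon-induced genes, 6 were lower in BMAL1 than in CON and 0 higher (median log2 fold change -1.84), and their part in the values was not tested. Of the wider list 0 of 139 tested passed, with 4 at an unadjusted p under 0.05.

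**Figure D4:**
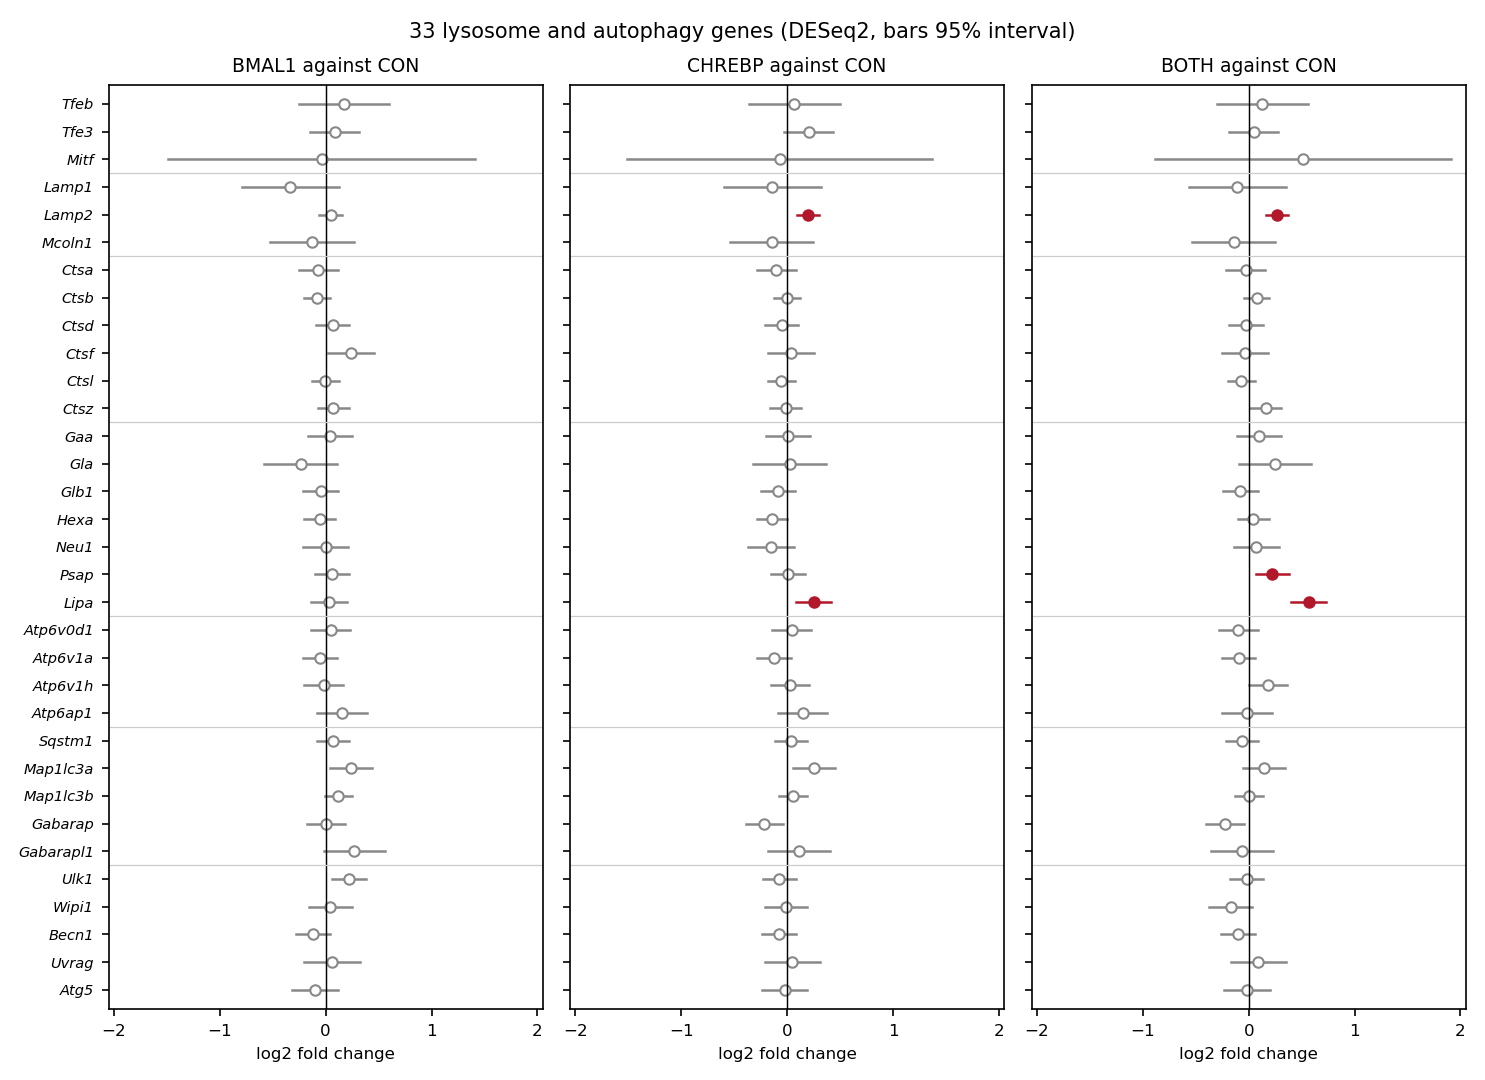
Log2 fold changes of the 33 genes against CON in BMAL1, CHREBP and BOTH, with 95% intervals from DESeq2 (16 libraries in the fit, n = 4 per group). Filled red points were higher at *Padj* under 0.1: none in BMAL1, *Lamp2* and *Lipa* in CHREBP, and *Lamp2*, *Lipa* and *Psap* in BOTH.

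CHREBP against CON addressed esiRNA against the lipogenic factor, with the column and the esiRNA dose differing as well. Of the 33 genes, 2 were higher and 0 were lower, when 3.42% of all genes tested passed, 2.65% higher and 0.771% lower. The groups did not overlap for 4 of the 33, against 8.58% of all genes. At an unadjusted p under 0.05, 3 were higher and 1 was lower, and edgeR called 1 higher and 0 lower. The higher genes were *Lamp2* and *Lipa*. *Lamp2* was at 4038, 3731, 3694 and 3794 in CHREBP, above every CON library, a rise of 14.8% (log2 0.20, SE 0.0539, DESeq2 *Padj* = 0.0102). *Lipa* was at 914, 879, 845 and 898 in CON and 1185, 939, 958 and 1136 in CHREBP. CHREBP replicates 1 and 4 were well above the CON range and replicates 2 and 3 just above it, and the log2 fold change was 0.25 (SE 0.0855, DESeq2 *Padj* = 0.0894). The call of *Lipa* was lost without any 1 of the 4 CON libraries or CHREBP replicate 1 or 4, when only *Lamp2* remained past the test. *Map1lc3a* and *Gabarap* had no overlap between the groups but did not pass, with log2 fold changes of 0.26 (*Padj* = 0.188) and -0.21 (*Padj* = 0.254). The median log2 fold change of the set was 0.00079, with 17 genes above and 16 below 0. Without CHREBP replicate 2, the lowest of its group for 17 of the 33, *Lamp2* and *Lipa* passed again.

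BOTH and CON received the same 200 nM of esiRNA, with the library column and the plate rows differing. In BOTH against CON, 3 genes were higher and 0 were lower, when 9.73% of all genes tested passed (5.99% higher and 3.75% lower). The groups did not overlap for 2 of the 33, against 10.9% of all genes. At an unadjusted p under 0.05, 4 were higher and 1 lower, and edgeR called 3 higher and 0 lower. *Lipa* stood at 1343, 1217, 1230.0 and 1449. Every BOTH library lay above every CON and every CHREBP library, and the level was 47.9% above CON (log2 0.57, SE 0.0851, DESeq2 *Padj* = 2.47e-09). *Lamp2* stood at 3929, 4276, 3963 and 3804, also above all CON libraries (log2 0.27, SE 0.0539, DESeq2 *Padj* = 3.47e-05). *Psap* was at 1294, 1396, 1537 and 1195 in CON and 1735, 1535, 1555 and 1526 in BOTH. CON replicate 3 lay within the BOTH range, and the log2 difference of 0.22 (SE 0.0794, DESeq2 *Padj* = 0.0616) did not pass without CON replicate 1, CON replicate 4 or BOTH replicate 1 (*Padj* = 0.182, 0.250 and 0.206). The call of *Psap* was also lost with all 24 libraries or only both groups in the fit (DESeq2 *Padj* up to 0.162). The median over the set was -0.01, and the share of the set called, 3 of 33, was close to the 9.73% of all genes. Where the mean normalized count reached 100, 13.4% of genes passed, and 3 of the 31 members at that level.

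The 6 groups were ordered by level for the genes with the most calls. For *Lipa*, the mean normalized count ran from 800.2 ± 26.8 for PAL through 884 ± 29.8 for CON, 904 ± 61.2 for BMAL1, 1055 ± 124 for CHREBP and 1159 ± 70.8 for BSA to 1309.7 ± 109 for BOTH (SD, n = 4). For *Lamp2*, the mean normalized count ran from 2951 ± 57.9 for PAL through 3315 ± 124 for CON, 3429.8 ± 115 for BMAL1, 3789 ± 211 for BSA and 3814 ± 155 for CHREBP to 3993 ± 201 for BOTH. Both genes were lowest in PAL and highest in BOTH, and BSA and CHREBP changed places between them. CON and BMAL1 were neighbours that did not differ beyond their spread for either gene, with log2 intervals of -0.13 to 0.20 for *Lipa* and -0.06 to 0.15 for *Lamp2*. *Lipa* and *Lamp2* were both among the 14 that were lower in PAL. *Tfe3*, *Ctsz*, *Ctsb*, *Ctsf*, *Neu1*, *Hexa* and *Gaa*, which were also lower in PAL, did not pass in CHREBP or BOTH against CON.

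**Figure D5:**
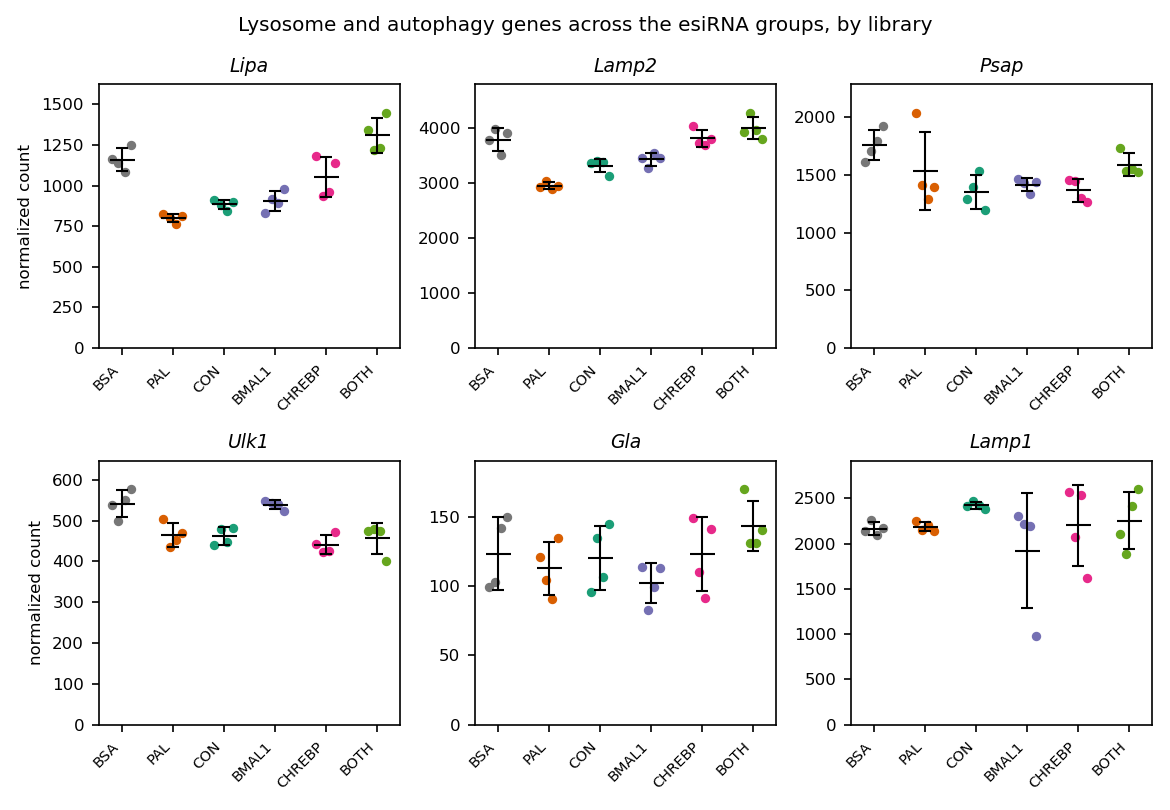
Normalized counts of 6 genes in each of the 24 libraries (points), with the mean and SD of each group (n = 4). *Lipa* and *Lamp2* are lowest in PAL and highest in BOTH, and 1 BMAL1 library of *Lamp1* lies at 978 while the other 3 lie between 2195 and 2304.

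BMAL1 against CON and BOTH against CHREBP each lay within 1 library column. BOTH against CHREBP, in which *Bmal1* esiRNA was added to *Chrebp* esiRNA and the total dose and the plate rows differed, gave 1 gene higher and 0 lower by DESeq2, when 0.994% of all genes tested passed, 0.843% higher and 0.151% lower. The groups did not overlap for 3 of the 33, against 3.41% of all genes. At an unadjusted p under 0.05, 5 were higher and 0 lower, and edgeR called 0. The gene was *Lipa*, which differed by 0.31 (SE 0.0849, DESeq2 *Padj* = 0.0342) on the log2 scale. It did not pass without CHREBP replicate 2 or 3 (*Padj* = 0.198 and 0.191). CHREBP replicate 2 held the lowest value of its group for 17 of the 33 genes. Interferon-induced genes had a median log2 fold change of 0.83 in that comparison, with 0 of 12 past the test. *Hexa* and *Psap* had no overlap between the groups and did not pass, with log2 fold changes of 0.19 (*Padj* = 0.333) and 0.21 (*Padj* = 0.257).

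BOTH against BMAL1, in which *Chrebp* esiRNA was added, the total dose went from 100 to 200 nM and the column changed, gave 4 genes higher and 1 lower, when 10.4% of all genes tested passed (6.35% higher and 4.08% lower). The groups did not overlap for 5 of the 33, against 11.3% of all genes. At an unadjusted p under 0.05, 6 were higher and 5 lower, and edgeR called 3 higher and 1 lower. *Lipa* (log2 0.53, SE 0.0856, DESeq2 *Padj* = 3.02e-08) and *Lamp2* (log2 0.22, SE 0.0541, DESeq2 *Padj* = 0.00146) were again higher without overlap. All 12 interferon-induced genes were higher in BOTH than in BMAL1 as well (median log2 fold change 5.66), and of 11 hepatocyte markers tested 5 were lower and 0 higher. The part of these genes in the values was not tested. *Gla* was at 114, 82.9, 99.6 and 113 in BMAL1 and 170.4, 132, 132 and 141 in BOTH, also apart (log2 0.49, SE 0.18, DESeq2 *Padj* = 0.0635). *Ctsb*, at 3618, 3599.6, 3777 and 3594 in BMAL1 and 3694, 4065, 4029.6 and 4498 in BOTH, overlapped between the groups, and its log2 difference of 0.16 (SE 0.0617, DESeq2 *Padj* = 0.0973) passed narrowly. The call of *Ctsb* was lost in 7 of the 8 fits that left out a library, with edgeR, with the replicate block and with only both groups in the fit. *Ulk1* was the gene that was lower, at 475, 480.0, 474 and 400.4 in BOTH, below every BMAL1 library (log2 -0.24, SE 0.0816, DESeq2 *Padj* = 0.0398), and it did not pass without BOTH replicate 4 (*Padj* = 0.164). The counts depended on single libraries. BOTH replicate 4 held the highest value of its group for 18 of the 33 genes, and without it 9 genes passed, 3 higher (*Lamp2*, *Lipa* and *Gla*) and 6 lower (*Ctsd*, *Ctsf*, *Atp6ap1*, *Sqstm1*, *Gabarap* and *Gabarapl1*). BMAL1 replicate 1 was the highest of its group for 17 of the 33, and 4 genes passed without it. Without BMAL1 replicate 2 or 3, only *Lamp2* and *Lipa* passed.

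The interaction is the difference BOTH minus CHREBP less the difference BMAL1 minus CON. Total esiRNA went up from 100 to 200 nM in the first difference and down from 200 to 100 nM in the second, so the dose and an interplay of the esiRNA targets cannot be told apart in it. None of the 33 genes passed it, with 0 by DESeq2, 0 by edgeR and 4 at an unadjusted p under 0.05, when 1.47% of all genes tested passed, 1.2% with a positive and 0.267% with a negative value. The 4 were *Hexa* (0.25), *Lipa* (0.28), *Map1lc3a* (-0.36) and *Gabarapl1* (-0.45) on the log2 scale. Of the 12 interferon-induced genes, 10 passed it with a positive value. Without BOTH replicate 4, *Atp6ap1* and *Map1lc3a* passed, both negative. Over the 4 esiRNA groups together, the likelihood ratio test of DESeq2 called 4 of the 33, *Lipa* (*Padj* = 1.38e-10), *Lamp2* (*Padj* = 1.79e-05), *Ulk1* (*Padj* = 0.0237) and *Gabarap* (*Padj* = 0.0851), when 9.92% of all genes passed.

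In the wider list, CHREBP against CON called 4 higher and 0 lower of 139 tested, and BOTH against CON 11 higher and 0 lower. Of all genes tested, 2.65% were higher and 0.771% lower in CHREBP, and 5.99% were higher and 3.75% lower in BOTH. *Grn* had the lowest *Padj* in both, at a log2 difference of 0.46 (SE 0.0910, DESeq2 *Padj* = 4.28e-05) in CHREBP and 0.84 (SE 0.0909, DESeq2 *Padj* = 6.14e-18) in BOTH. *Npc2* (0.28 in CHREBP and 0.44 in BOTH) and the membrane protein *Tmem192* (0.41 and 0.55) were also higher in both, and *Laptm4a* (0.24) completed the 4 in CHREBP. In BOTH, *Optn*, a receptor of selective autophagy, was higher by 0.86 (SE 0.14, DESeq2 *Padj* = 2.08e-08) and the sulfatase *Arsb* by 0.57 (SE 0.16, DESeq2 *Padj* = 0.00598). BOTH against CHREBP called *Grn* (0.38) and *Optn* (0.50) and no other of 139, when 0.994% of all genes passed. BOTH against BMAL1, where 10.4% of all genes passed, called 13 of 139 higher, led by *Grn* (0.95) and *Optn* (0.99), and 7 lower, led by the sialic acid exporter *Slc17a5* (-0.52) and the protease *Atg4a* (-0.66).

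All 12 interferon-induced genes were higher in CHREBP and in BOTH than in CON, with median log2 fold changes of 2.65 and 3.47. *Lipa*, *Lamp2*, *Grn* and *Npc2* were higher in both comparisons too. In BMAL1 against CON, 6 of the 12 were lower, and *Lipa*, *Lamp2*, *Grn* and *Npc2* did not pass. *Optn* passed in BOTH but not in CHREBP (log2 0.36, SE 0.14, DESeq2 *Padj* = 0.172). Beside them, 4 of 11 hepatocyte markers tested were lower and 0 higher in BOTH than in CON, and 0 of 11 passed in CHREBP. The part of the interferon-induced genes and of these markers was not tested. In CHREBP and in BOTH against CON it cannot be told apart from the library column, nor in BOTH from the plate rows.

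All 33 genes are annotated as protein coding in GENCODE M21. On the same strand, 7 overlap another annotated gene (*Ctsd*, *Ctsl*, *Glb1*, *Map1lc3b*, *Gabarapl1*, *Uvrag* and *Atg5*), and 9 overlap one on the other strand only, among them *Ctsb* and *Ctsz*. Reads of these 16 could be shared with their neighbours, since the use of strand in counting is not given in the sources used here. *Lipa*, *Lamp2*, *Tfeb*, *Tfe3*, *Neu1* and *Ulk1* are among the 17 without overlap.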

How the data were processed

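Gene expression was measured by BRB-seq in 24 libraries of AML-12 cells. The authors deposited raw whole-number counts per Ensembl gene. Their processing notes name STAR, HTSeq, featureCounts and DESeq2 without versions, and mm10 as the genome. Use of molecular identifiers and of strand, and the annotation release, are not given in the sources used here. The 5 summary lines of the table were left out, and 24.9% to 28.0% of counts lay in its line for reads not aligned. Libraries were grouped by their labels. Total gene counts were 5399700 to 11237474 (median 7872956), so a floor of 3 counts corresponded to 2.02 to 4.24 normalized counts, which covers counting error only. Replicates of a group differed beyond counting error in all 36 pairs (chi-square per degree of freedom 2.69 to 23.1).

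From these counts, DESeq2 1.42.0 (R 4.3.3) tested every gene whose counts summed to at least 25 over the fitted libraries, with *Padj* under 0.1 over all genes tested. PAL against BSA and CON against PAL were fitted on their 8 libraries, and the esiRNA comparisons, their interaction and the likelihood ratio test on 16. CON is shared by the comparisons against it, and PAL by the first pair. Normalized counts used the size factors of all 24 libraries. Ranges given for single libraries are those of normalized counts. Alternatives were edgeR 4.0.16 (quasi-likelihood), TMM scaling, no filter on low counts, the replicate number as a block, other sets of libraries in the fit, and leaving out each library. Tests were checked on simulated counts. The background at a mean of at least 100 normalized counts was chosen after seeing the data. Gene positions came from GENCODE M21 (GRCm38) and promoters from RefSeq GRCm38.p6, read with Python 3.11.15 and pandas 2.3.3.

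Library values are printed for members called in at least 1 comparison, for *Tfeb*, *Tfe3* and *Mitf*, and for *Lamp1* in CON and BMAL1. For other members, the only library values printed are ranges and flagged libraries. Of the wider list, at most 5 genes with the lowest *Padj* in each direction are named per comparison. The members and lists were chosen with earlier results of these data known.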

Additional observations from a re-analysis of the deposited data

Results flagged for a closer look

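In 18 of the 198 sets of 4 libraries examined (33 genes in 6 groups), 1 library stood far from the other 3 by Dixon's test at the 95% level, when chance flags about 1 in 20, or 9.9 sets. *Lamp1* was lowest in BMAL1 replicate 4, at 978 normalized counts, when the other 3 libraries held 2195 to 2304. For *Psap*, PAL replicate 1 was highest at 2039.6, beside 1291 to 1414 in the others. For *Psap*, BOTH replicate 1 was highest at 1735, beside 1526 to 1555 in the others. *Mcoln1* was highest in PAL replicate 1, at 218 normalized counts, when the other 3 libraries held 121 to 133. *Map1lc3a* was lowest in PAL replicate 2, at 408 normalized counts, when the other 3 libraries held 578 to 609.9. The library was the lowest of its group for *Lamp2* in CON replicate 4 (3130.2), *Ctsa* in CON replicate 3 (974), *Glb1* in BSA replicate 4 (690.3), *Glb1* in CHREBP replicate 2 (599), *Neu1* in BMAL1 replicate 4 (318), *Atp6v0d1* in CON replicate 4 (427), *Atp6ap1* in CHREBP replicate 2 (296), *Ulk1* in BOTH replicate 4 (400.4) and *Wipi1* in CHREBP replicate 4 (449.7). The library was the highest of its group for *Ctsb* in BMAL1 replicate 3 (3777), *Gaa* in PAL replicate 1 (667), *Gaa* in CON replicate 4 (757) and *Gabarapl1* in BSA replicate 3 (166). The cause was not tested.

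In the wider list, the difference BOTH minus CHREBP was unlike the difference BMAL1 minus CON for 3 of 139 genes tested, when 1.47% of all genes passed (DESeq2 interaction over all genes, 16 libraries). Total esiRNA rose by 100 nM in the first difference and fell by 100 nM in the second, so dose and target cannot be told apart here. *Grn* had a log2 interaction of 0.49 (SE 0.13, *Padj* = 0.0181) and *Optn* one of 0.63 (SE 0.20, *Padj* = 0.0702). *Deptor*, an inhibitor of mTOR, had one of -0.67 (SE 0.20, *Padj* = 0.0630). For the 12 interferon-induced genes 10 passed the same test, and their part in these values was not tested.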

How the results depend on the processing

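Alternatives were run for the 29 calls of single members and for *Tfeb* and *Mitf* in PAL against BSA, and not for other named genes. None of these changed direction. Of 388 refits of the 29 calls of single genes, 318 kept the call, 70 lost it and 0 changed sign. For PAL against BSA the count of 14 genes ranged from 12 to 15 when libraries were left out and from 12 to 14 otherwise. For CON against PAL the count of 4 fell to 1 with the replicate block and to 1 with all 24 libraries in the fit, and ranged from 1 to 4 with libraries left out. For CHREBP against CON the count of 2 became 1 with edgeR and 4 with only both groups in the fit, and ranged from 1 to 2 with libraries left out. For BOTH against CHREBP the count of 1 became 0 with edgeR and 0 with only both groups in the fit, and ranged from 0 to 1 with libraries left out. For BOTH against BMAL1 the count of 5 became 3 with only both groups in the fit, and ranged from 2 to 9 with libraries left out. The interaction ranged from 0 to 2 and the test over the 4 esiRNA groups from 2 to 6, with 2 when BMAL1 replicate 1, 2 or 3 was left out. BMAL1 against CON stayed at 0. The cause of these changes was not tested. Libraries with the same number did not deviate together on average (mean correlation 0.0177 over 60 pairs, from -0.28 to 0.32, 8 above 0.1). A low mean cannot exclude that the numbers pair samples of some groups. With the block, calls over all genes went from 1828 to 1188 in PAL against BSA and from 325 to 186 in CON against PAL. Depth limited *Mitf*, where 0 to 18 counts per library allow no statement on small changes.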
